A study of Mus musculus with 9 samples.

Results

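The Jak kinases and Stat factors examined here are 9 listed genes, namely the kinase genes Jak1, Jak2, Jak3 and Tyk2 and the transcription factor genes Stat3, Stat4, Stat5a, Stat5b and Stat6. A gene was taken from a probe set that the array annotation gives exactly 1 gene symbol, and 8 of the 9 were measured in this way, 3 kinases and 5 Stat factors, among 22180 genes in all. Each of the 8 had 1 such probe set, and each lay in the brighter part of the genes, with a mean over the 9 arrays above that of the median gene. Jak3 had no probe set of its own, since the only one that names it also names Insl3.

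The samples were long-term haematopoietic stem cells of C57BL/6 mice, sorted from bone marrow as cells without lineage markers, CD34 or CD135 and with Sca-1 and c-kit. There were 3 groups of 3 arrays. The Jak2VF_Ezh2KO mice were labelled MxCre Jak2VF/+ EZH2-/-, a genotype that names 1 mutant Jak2 allele and no intact Ezh2. The Jak2VF mice were MxCre Jak2VF/+, and the WT mice were the controls. All 3 groups, WT included, were given pI-pC when 4 weeks old, in 5 injections of 300 µg each, and marrow was taken 12 weeks after that. MxCre is a Cre recombinase under an interferon-responsive promoter that pI-pC switches on, and it acts in blood cells but also in other tissues. The labels do not say whether the WT mice carried it. The labels call the arrays biological replicates without saying whether each is 1 mouse or a pool, so p-values measure the spread between these arrays.

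Jak kinases sit on the inner part of cytokine receptors and become active when a ligand brings the receptor chains together. They then phosphorylate Stat factors, which pair, enter the nucleus and switch on target genes, among them the Socs genes that dampen the signal. In blood stem cells the thrombopoietin receptor works through Jak2 and mainly Stat5 and Stat3, and the Jak2VF allele gives a kinase that is active without ligand. That activity lies in the protein, so the RNA level of Jak2 does not report it, and the probe set does not tell the mutant from the normal allele.

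Values are log2 array signals as the authors deposited them, so that a difference of 1 means a doubling. They can be compared between arrays for 1 gene but not between genes. Differences were tested with limma over all 22180 genes, and a gene passed at an adjusted p (Benjamini-Hochberg) under 0.05. Array medians lay between 5.51 and 5.67, and correlations between arrays lay between 0.898 and 0.968. In the Jak2VF_Ezh2KO group, replicates 1 and 2 carried Y-linked signal and replicate 3 did not, and neither did the 6 Jak2VF and WT arrays. Xist read 4.86 and 4.56 in those 2 replicates and 10.84 to 11.31 in all other arrays. By these genes the 2 read as male and the others as female, so sex differs in part along with genotype in both comparisons of Jak2VF_Ezh2KO. Of the stem cell markers, Kit read between 9.43 and 10.18 and Procr between 7.01 and 8.19 over the 9 arrays. Procr averaged 8.05 in Jak2VF_Ezh2KO, 7.15 in Jak2VF and 7.78 in WT. Cd34, the gene of a surface marker that the sort excluded, read 9.91 to 10.68. Ezh2 itself read 8.47, 8.08 and 8.42 in Jak2VF_Ezh2KO, against 8.87, 9.09 and 8.78 in Jak2VF and 8.48, 8.81 and 8.69 in WT. Its 3 Jak2VF_Ezh2KO values lay below all others, but the difference from Jak2VF of -0.59 did not pass (limma, adjusted p = 0.411). Whether the probe set covers the deleted part of Ezh2 is unknown, so the signal does not check the deletion.

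None of the 8 genes passed in any of the 3 comparisons by limma. The Jak2VF_Ezh2KO against Jak2VF comparison held the clearest differences, with Jak2 and Stat5b lower in Jak2VF_Ezh2KO. Of the 8 genes, 0 passed at the adjusted threshold, where 0.0451% of all genes did. At an unadjusted p under 0.05 there were 2, Jak2 and Stat5b, or 2 of 8 against 6.89% of all genes. The same 2 had groups that did not overlap, where 11.1% of all genes did. In Jak2VF against WT, 0 of the 8 passed, and so did 0% of all genes. At an unadjusted p under 0.05 there was 1, Stat3, where 4.66% of all genes reached it, and 0 of 8 had groups without overlap, against 6.11% of all genes. In Jak2VF_Ezh2KO against WT, 0 of the 8 passed, where 0.0225% of all genes did. None of the 8 reached an unadjusted p under 0.05 there, against 8.6% of all genes, and 0 of 8 had groups without overlap, against 12.9%.

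**Figure D1:**
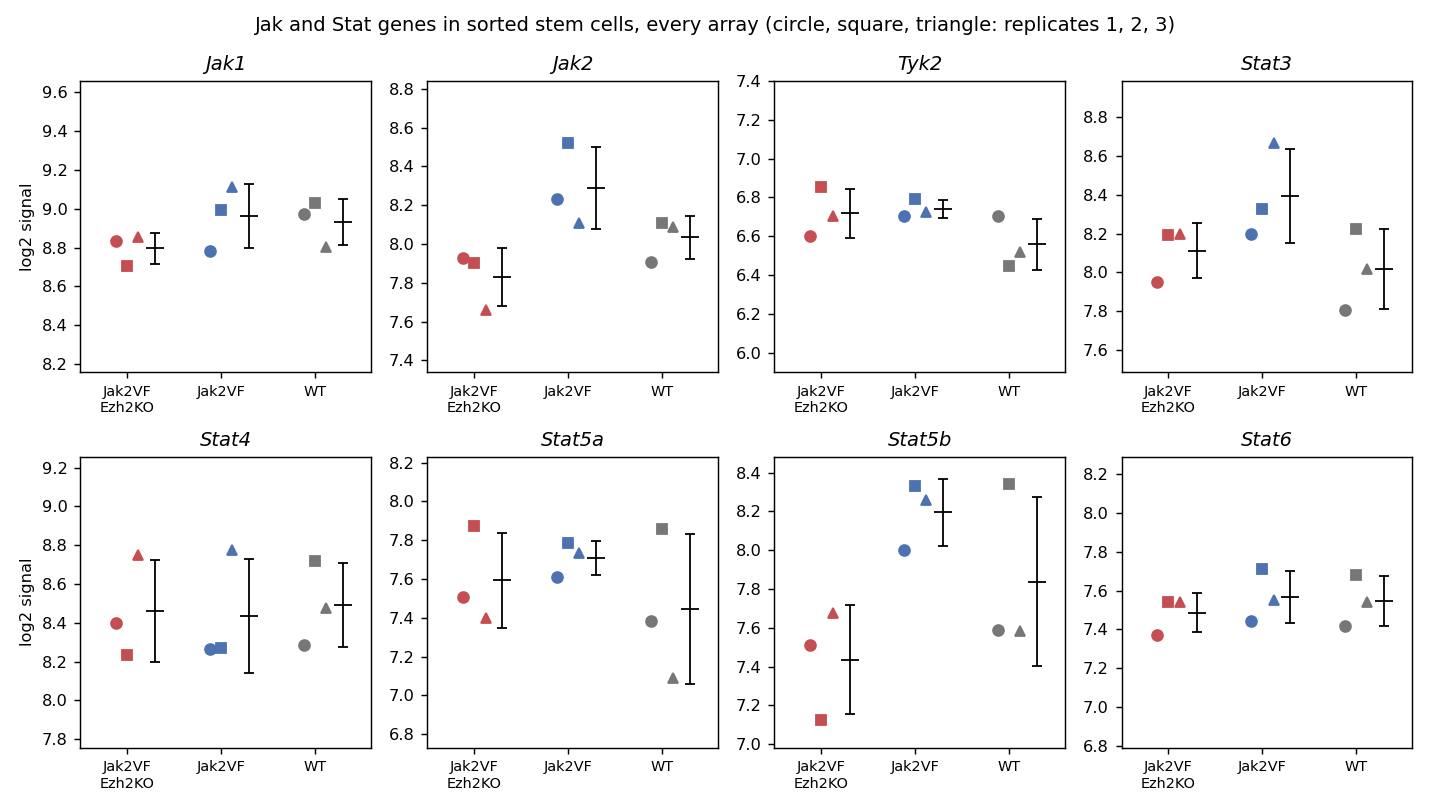
Log2 signal of the 8 measured Jak and Stat genes in every array, 1 panel a gene, with Jak2VF_Ezh2KO on the left, Jak2VF in the middle and WT on the right; the black bar beside each group is its mean with the SD of 3 arrays. Each panel spans the same height on the log2 axis. The Jak2VF_Ezh2KO and Jak2VF points do not overlap for Jak2 and Stat5b, whereas the panels of Jak1, Tyk2 and Stat6 are narrow and those of Stat4 and Stat5a mix.

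Jak2 is the kinase of the erythropoietin and thrombopoietin receptors and of the shared beta chain of the interleukin-3 family of receptors. It read 7.93, 7.90 and 7.66 in the 3 Jak2VF_Ezh2KO arrays, 8.23, 8.52 and 8.11 in the 3 Jak2VF arrays, and 7.91, 8.11 and 8.09 in the 3 WT arrays. All 3 Jak2VF_Ezh2KO arrays thus lay below all 3 Jak2VF arrays, and 1 of them, replicate 1, lay within the WT range. Jak2VF_Ezh2KO minus Jak2VF came to -0.46 (standard error 0.15), with a 95% interval of -0.79 to -0.13, that is a 1.37-fold lower signal (limma, unadjusted p = 0.0114, adjusted p = 0.539). Jak2VF exceeded WT by 0.25, with an interval of -0.08 to 0.58 (adjusted p = 0.924). Jak2VF_Ezh2KO minus WT was -0.20, with an interval of -0.53 to 0.13 (adjusted p = 0.719). By group mean Jak2VF_Ezh2KO was lowest at 7.83 ± 0.15, Jak2VF highest at 8.29 ± 0.21 and WT between them at 8.03 ± 0.11 (SD, n = 3 each), and the interval of WT with either neighbour included 0. A lower signal in sorted cells can come from fewer cells of a kind or from less RNA per cell, and the arrays cannot tell these apart.

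Because Jak2 and Stat5b stood out among the members, their promoter windows are shown, each as the 250 bases before the gene start given with RefSeq's promoter sequences (build GRCm38.p6). Capitals mark GC boxes, GGGCGG on either strand. The Jak2 window lies at chr19:29251553-29251802 on the plus strand and holds 2 GC boxes.
Jak2: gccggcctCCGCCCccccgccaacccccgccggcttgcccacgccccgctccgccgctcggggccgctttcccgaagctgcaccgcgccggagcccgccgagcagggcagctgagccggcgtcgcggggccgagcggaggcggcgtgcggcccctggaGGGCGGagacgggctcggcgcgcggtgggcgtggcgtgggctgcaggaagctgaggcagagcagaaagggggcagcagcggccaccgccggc
It has a G and C content of 80.8% and 37 CpG dinucleotides, against medians of 52.0% and 6.0 over 27025 mouse promoters of the same length.

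Stat5b and its neighbour Stat5a encode closely related Stat factors that carry the signal of Jak2-coupled receptors in blood cells. Stat5b read 7.51, 7.12 and 7.68 in Jak2VF_Ezh2KO, 8.0, 8.33 and 8.26 in Jak2VF, and 7.59, 8.34 and 7.58 in WT. The Jak2VF_Ezh2KO arrays all lay below the Jak2VF arrays, while WT was split, with replicates 1 and 3 among the Jak2VF_Ezh2KO values and replicate 2 beside the highest Jak2VF value. Jak2VF_Ezh2KO minus Jak2VF came to -0.76 (standard error 0.23), with an interval of -1.27 to -0.25, or a 1.69-fold lower signal (limma, unadjusted p = 0.00756, adjusted p = 0.503). Of all genes, 1.5% had a p as small or smaller in this comparison, and 2.1% had one as small as that of Jak2. Against WT, Jak2VF_Ezh2KO differed by -0.40 (interval -0.91 to 0.11, adjusted p = 0.655), and Jak2VF against WT differed by 0.36 (interval -0.15 to 0.87, adjusted p = 0.924). Both values against WT moved with single arrays. Without WT replicate 2 they were -0.15 for Jak2VF_Ezh2KO and 0.61 for Jak2VF. Jak2VF_Ezh2KO minus WT was -0.24 without Jak2VF_Ezh2KO replicate 2, while leaving out WT replicate 1 gave 0.24 for Jak2VF minus WT and leaving out WT replicate 3 gave 0.23. The WT spread of Stat5b, an SD of 0.43, was the widest of the 8 genes in any group.

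Stat5a read 7.51, 7.87 and 7.40 in Jak2VF_Ezh2KO, 7.61, 7.78 and 7.73 in Jak2VF, and 7.39, 7.86 and 7.09 in WT. The 3 groups overlapped, and the Jak2VF arrays lay close together, with an SD of 0.09 against 0.39 in WT. Stat5a differed by -0.12 between Jak2VF_Ezh2KO and Jak2VF (interval -0.57 to 0.33, adjusted p = 0.940) and by 0.26 between Jak2VF and WT (interval -0.19 to 0.72, adjusted p = 0.924). Whether the 2 paralogues differ in their response was not tested, and their intervals overlap. The Stat5b window, at chr11:100850582-100850831 on the minus strand, and the Stat5a window, at chr11:100859406-100859655 on the plus strand, are shown to set the paralogues side by side.
Stat5b: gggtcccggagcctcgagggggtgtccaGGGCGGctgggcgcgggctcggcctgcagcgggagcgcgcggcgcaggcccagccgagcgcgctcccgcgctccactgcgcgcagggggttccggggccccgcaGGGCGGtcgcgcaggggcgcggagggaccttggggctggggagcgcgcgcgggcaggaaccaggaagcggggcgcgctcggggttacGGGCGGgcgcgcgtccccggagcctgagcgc
Stat5a: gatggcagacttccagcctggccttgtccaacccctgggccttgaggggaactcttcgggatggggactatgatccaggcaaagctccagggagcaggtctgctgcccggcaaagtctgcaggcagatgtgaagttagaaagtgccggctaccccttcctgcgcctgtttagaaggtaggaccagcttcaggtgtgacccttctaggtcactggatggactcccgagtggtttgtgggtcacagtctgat
The Stat5b window holds 3 GC boxes and 40 CpG dinucleotides at a G and C content of 82.0%, whereas the Stat5a window holds 0 GC boxes and 5 CpG dinucleotides at 57.6%. Both windows lie wholly inside the span of their RefSeq gene records, so other starts of these genes may exist further upstream. The windows of Jak1, Tyk2, Stat3, Stat4 and Stat6 lie partly inside that span, by 31 to 118 bases. The Jak2 window lies outside it. At least 1 GC box was found in 5 of the 8 members' windows, against 33.0% of all promoters. The Stat palindrome TTCNNNGAA, the same on both strands, was found in 0 of the 8 windows, against 7.14% of all promoters, and the Ets core CCGGAAG on either strand in 0 of 8, against 7.07%. No match says only that these letters are not in these 250 bases.

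Stat3 carries the signal of interleukin-6 type receptors and also lies downstream of the thrombopoietin receptor. It read 7.95, 8.19 and 8.20 in Jak2VF_Ezh2KO, 8.20, 8.33 and 8.66 in Jak2VF, and 7.81, 8.22 and 8.02 in WT. The Jak2VF values were mostly the highest, but WT replicate 2 lay above Jak2VF replicate 1. Jak2VF exceeded WT by 0.38 (standard error 0.17), with an interval of 0.01 to 0.75, or 1.30-fold (limma, unadjusted p = 0.0456, adjusted p = 0.924). The difference was 0.24 without Jak2VF replicate 3, the highest array. Jak2VF_Ezh2KO differed from Jak2VF by -0.28 (interval -0.65 to 0.09, adjusted p = 0.774) and from WT by 0.10 (interval -0.27 to 0.47, adjusted p = 0.892).

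Jak1, the partner kinase of interleukin-6 type, interferon and common gamma chain receptors, read 8.83, 8.70 and 8.85 in Jak2VF_Ezh2KO, 8.78, 8.99 and 9.11 in Jak2VF, and 8.97, 9.03 and 8.80 in WT. Its 9 values spanned 0.41, and the groups overlapped. Jak1 differed by -0.17 between Jak2VF_Ezh2KO and Jak2VF (interval -0.46 to 0.13, adjusted p = 0.847) and by 0.03 between Jak2VF and WT (interval -0.27 to 0.33, adjusted p = 0.987).

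Tyk2, the kinase of the type I interferon and interleukin-12 receptors, read 6.60, 6.85 and 6.70 in Jak2VF_Ezh2KO, 6.70, 6.79 and 6.72 in Jak2VF, and 6.70, 6.45 and 6.52 in WT. All 6 mutant arrays lay above WT replicates 2 and 3, while WT replicate 1 lay among them. Tyk2 differed by -0.02 between Jak2VF_Ezh2KO and Jak2VF (interval -0.30 to 0.26, adjusted p = 0.984), by 0.18 between Jak2VF and WT (interval -0.10 to 0.46, adjusted p = 0.924) and by 0.16 between Jak2VF_Ezh2KO and WT (interval -0.12 to 0.44, adjusted p = 0.741).

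Stat6, which carries interleukin-4 and interleukin-13 signals, had the narrowest range of the 8 genes, 0.34 over the 9 arrays. It read 7.37, 7.54 and 7.54 in Jak2VF_Ezh2KO, 7.44, 7.71 and 7.55 in Jak2VF, and 7.42, 7.68 and 7.54 in WT. The groups lay on top of each other, and the 95% interval of the difference between Jak2VF_Ezh2KO and Jak2VF, -0.37 to 0.21, reaches a 1.30-fold lower and a 1.16-fold higher signal.

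Stat4, the interleukin-12 responsive factor best known from T and NK cells, read 8.40, 8.24 and 8.75 in Jak2VF_Ezh2KO, 8.27, 8.27 and 8.78 in Jak2VF, and 8.29, 8.72 and 8.47 in WT. The groups overlapped fully, with a high array in each. Jak2VF_Ezh2KO minus Jak2VF was 0.02 (interval -0.41 to 0.46, adjusted p = 0.991). The T and NK cell marker list lay higher in Jak2VF_Ezh2KO, with means over 18 of 20 listed genes of 6.01 to 6.31, against 5.58 to 5.70 in Jak2VF and 5.57 to 5.76 in WT. Cd3e, a T cell gene of the list, read 4.72 to 5.16 over the 9 arrays, and 4 of the 18 genes lay above the median gene. By group mean, 12 of the 18 were higher in Jak2VF_Ezh2KO than in both other groups. Among them were Il7r, Ccl5, Cd7 and Gzmb and the NK cell genes Klrd1 and Ncr1. The 3 that were lower than in both were Cd4, Cd8a and the NK cell gene Klrb1c. The part of such cells in the values of Stat4 was not tested.

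The probe set that the annotation gives to both Jak3 and Insl3 is no measure of either gene alone. Jak3 is the kinase of the common gamma chain in lymphocytes, and Insl3 is an insulin-like peptide gene known from the testis. The probe set read 8.28, 8.43 and 8.57 in Jak2VF_Ezh2KO, 7.89, 7.92 and 8.30 in Jak2VF, and 7.62, 8.04 and 7.70 in WT. Jak2VF_Ezh2KO lay above all WT arrays, with a difference of 0.64 (interval 0.24 to 1.04), but this did not pass over 41345 probe sets (limma, adjusted p = 0.476). Jak2VF_Ezh2KO exceeded Jak2VF by 0.39 (interval -0.01 to 0.79, adjusted p = 0.743). The T and NK cell list also lay higher in Jak2VF_Ezh2KO, and its part here was not tested.

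**Figure D2:**
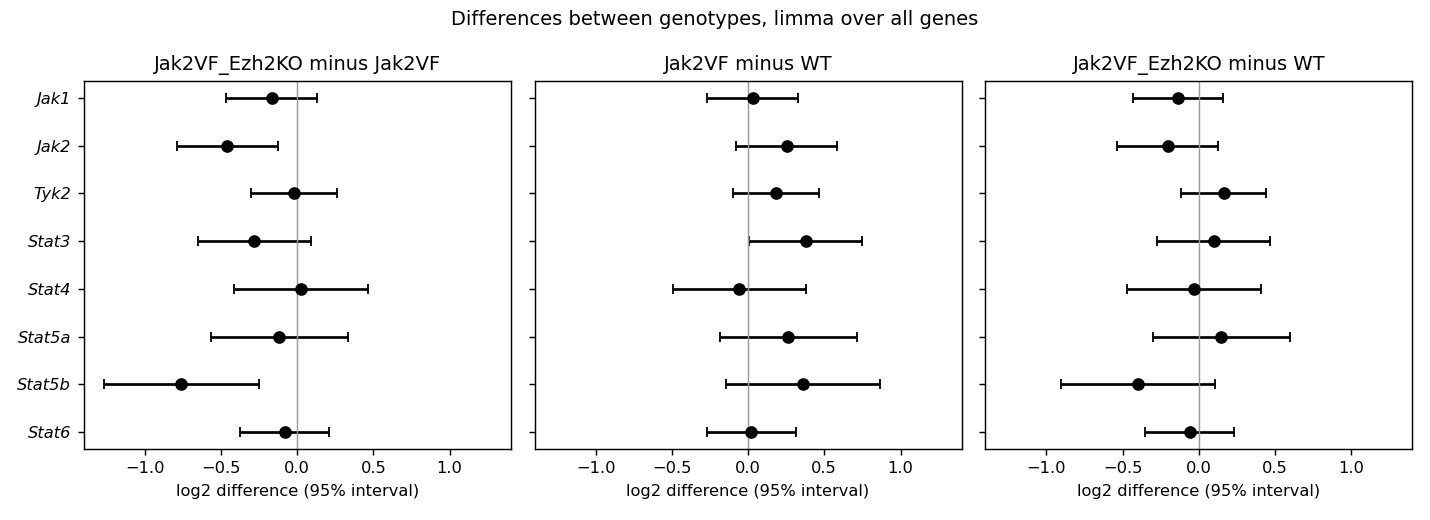
Differences between genotypes for the 8 measured genes, in log2 units with 95% intervals from limma, for Jak2VF_Ezh2KO minus Jak2VF, Jak2VF minus WT and Jak2VF_Ezh2KO minus WT. In the left panel the intervals of Jak2 and Stat5b lie below 0, in the middle panel that of Stat3 lies just above 0, and all other intervals include 0.

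As a group the 8 genes were spread around small differences. In Jak2VF_Ezh2KO against Jak2VF, 7 were negative and 1 positive, with a median of -0.14, where 41.8% of all genes were positive and their median was -0.04. In Jak2VF against WT, 7 were positive and 1 negative, with a median of 0.22, where 55.8% of all genes were positive and their median was 0.03. The opposite signs are not independent of each other, since both comparisons use the same Jak2VF arrays. In Jak2VF_Ezh2KO against WT, which does not use those arrays for its means, 3 were positive and 5 negative, with a median of -0.05, where 46.5% of all genes were positive and their median was -0.02. The 8 genes had no common order of the 3 group means. Megakaryocyte markers, over 11 of 14 listed genes, 10 of them above the median gene, were highest in Jak2VF by list mean. Their list means were 6.83 to 7.20 in Jak2VF_Ezh2KO, 7.50 to 7.94 in Jak2VF and 7.14 to 7.37 in WT. By group mean, 8 of the 11 were lower in Jak2VF_Ezh2KO than in both other groups and 0 higher. Of 11 measured monocyte and macrophage genes, 6 were lower than in both and 1 higher. Erythroid genes ran the other way, with 10 of 11 measured higher in Jak2VF_Ezh2KO than in both and 0 lower. The list means of the groups overlapped for erythroid and for monocyte and macrophage genes. The stem cell list, with 16 of 18 genes measured and 15 of them above the median gene, lay between 7.30 and 7.41 in Jak2VF_Ezh2KO, 7.12 and 7.26 in Jak2VF and 7.39 and 7.47 in WT. The part of the cell makeup in the values of Jak2 and Stat5b was not tested.

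**Figure D3:**
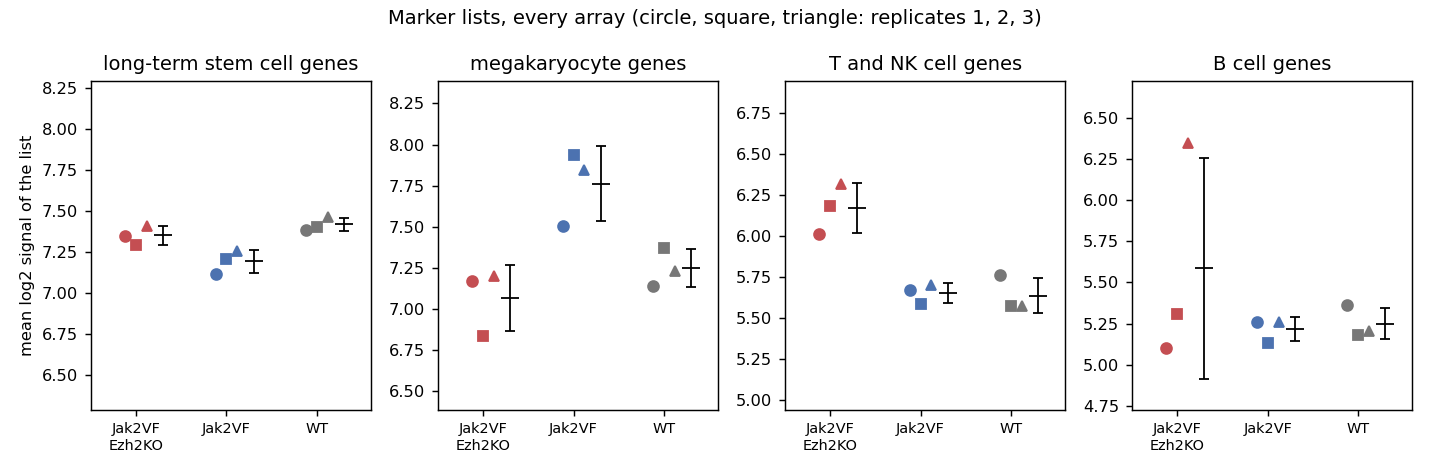
Mean log2 signal of 4 marker lists in every array, with Jak2VF_Ezh2KO on the left, Jak2VF in the middle and WT on the right; black bars are means with the SD of 3 arrays, and every panel spans the same height. The mean of the T and NK cell list is higher in the 3 Jak2VF_Ezh2KO arrays, that of the megakaryocyte list is highest in Jak2VF, and B cell genes are at 6.35 in Jak2VF_Ezh2KO replicate 3 and between 5.10 and 5.36 in the other 8 arrays.

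Across the 9 arrays, the correlation between members was above 0 in 22 of 28 pairs, with a median of 0.36. It was highest for Jak1 and Stat5b (r = 0.78), followed by Jak2 and Stat5b (r = 0.66), and lowest for Tyk2 and Stat4 (r = -0.46). With the group means removed, r was 0.68 for Jak1 and Stat5b and 0.10 for Jak2 and Stat5b. Jak2 and Stat5b were both lower in Jak2VF_Ezh2KO than in Jak2VF, and this shared group difference by itself raises their r over the 9 arrays. With so few arrays in a group, the value of 0.10 does not settle whether Jak2 and Stat5b vary together within groups. These values describe 9 arrays that share their genotype groups. Among named genes outside the family, the patterns most like Jak2 were those of Parvg (r = 0.97 over 9 arrays) and Tnfrsf17 (r = 0.96), and those most like Stat5b were Rtn3 (r = 0.98) and Fut8 (r = 0.97). For Jak1 they were Plp2 and Reps1 (both r = 0.96), for Stat3 Acsf2 (r = 0.96) and Kdm3a (r = 0.95), and for Stat5a Rabgef1 (r = 0.95) and Prkacb (r = 0.93). Those of Tyk2 were Acot9 (r = 0.91) and Ccdc28b (r = 0.89), those of Stat4 Lrrc32 (r = 0.95) and Dennd1c (r = 0.94), and those of Stat6 Cnp (r = 0.96) and Ilvbl (r = 0.94). With 22180 genes and 9 arrays, high values are reached by some genes for any pattern.

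Stat5b, Stat5a and Stat3 lie next to each other on chromosome 11, and Jak2 lies on chromosome 19, in the gene order of GRCm38.p6. The genes flanking the Stat group differed little. Between Jak2VF_Ezh2KO and Jak2VF, Ghdc, beside Stat5b, differed by -0.04 (adjusted p = 0.970) and Cavin1, beside Stat3, by 0.25 (adjusted p = 0.789). Of 30 measured neighbours within 3 genes of a member, 3 had an unadjusted p under 0.05 in that comparison, 1 in Jak2VF against WT and 2 in Jak2VF_Ezh2KO against WT. Among all genes the shares at that level were 6.89%, 4.66% and 8.6% in the same order, so these counts lay near the background.

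The 1 in Jak2VF against WT was Insl6, the next gene after Jak2, which is named here after its values were seen. Insl6 encodes an insulin-like peptide known from the testis. It read 7.40, 7.44 and 7.37 in Jak2VF_Ezh2KO, 6.79, 7.11 and 7.50 in Jak2VF, and 6.02, 6.27 and 5.19 in WT, so that all 6 arrays with the mutant Jak2 allele lay above all 3 WT arrays. The difference from WT was 1.57 in Jak2VF_Ezh2KO (interval 0.98 to 2.17, 2.98-fold, limma adjusted p = 0.159) and 1.31 in Jak2VF (interval 0.71 to 1.90, 2.47-fold, adjusted p = 0.861), and neither passed. These comparisons share the WT arrays. Rcl1, the measured neighbour on the other side of Jak2, differed by 0.24 between Jak2VF and WT, and the next gene beyond Insl6, Rln1, by 0.02. The sources used here do not describe how the Jak2VF allele was built, and the cause of the Insl6 values was not tested.

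**Figure D4:**
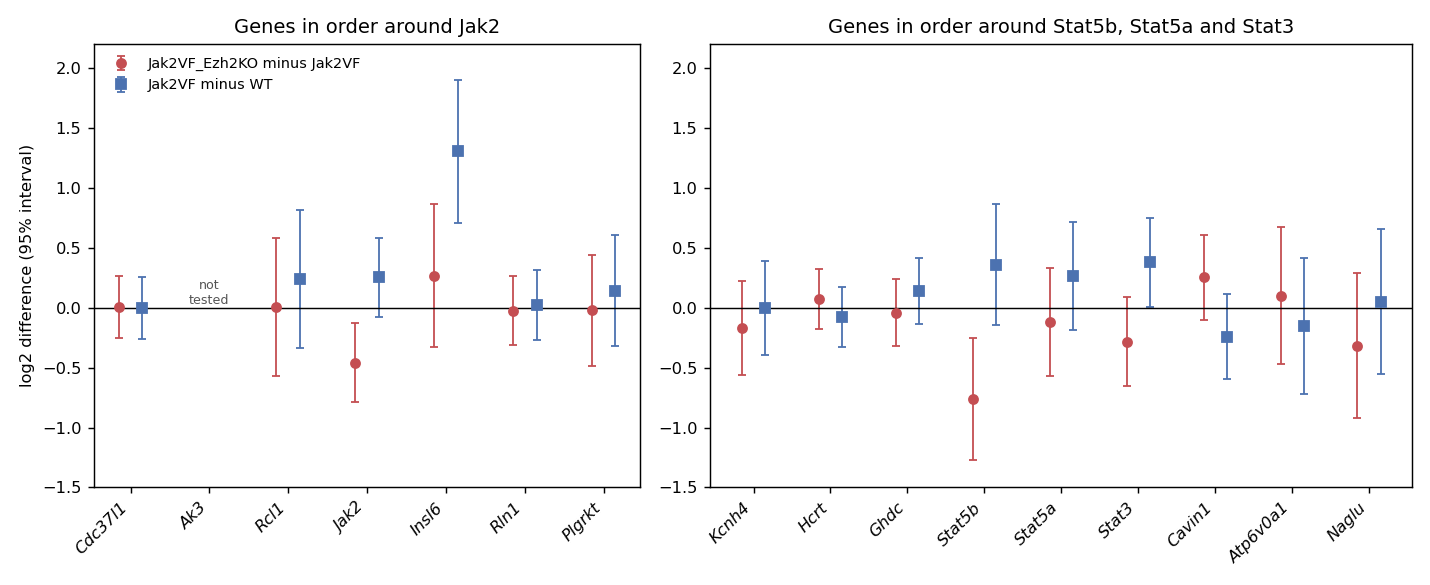
Log2 differences with 95% intervals for genes in chromosomal order around Jak2 (left) and around Stat5b, Stat5a and Stat3 (right), with Jak2VF_Ezh2KO minus Jak2VF as circles and Jak2VF minus WT as squares; the horizontal axis gives order and not distance, and Ak3 was not tested. Insl6 stands at 1.31 in Jak2VF minus WT beside Jak2 at 0.25, and Stat5b stands at -0.76 in Jak2VF_Ezh2KO minus Jak2VF between genes closer to 0.

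The rest of the pathway was read from lists of ligands, receptors, adaptors, inhibitors and Stat target genes. None of their members passed over all genes in any comparison by limma. Of 24 measured ligand genes, 1 was higher and 1 lower at an unadjusted p under 0.05 in Jak2VF_Ezh2KO against Jak2VF, where 6.89% of all genes reached that level, and the list median was -0.07 against -0.04 for all genes. Clcf1, an interleukin-6 type cytokine, differed by 0.69 and Il12a, a subunit of interleukin-12, by -0.61 (limma, adjusted p = 0.43 and 0.512). Il12b, the other interleukin-12 subunit, differed by -0.24 (adjusted p = 0.748). In Jak2VF against WT, Osm, a cytokine gene that Stat5 is known to induce, differed by 0.55 Clcf1 by -0.47 and Il12a by 0.36 (adjusted p = 0.924 each). In Jak2VF_Ezh2KO against WT 0 ligand genes reached an unadjusted p under 0.05, and the smallest p belonged to Il15, at 0.51, Il2, at -0.47, and Tslp, at 0.23 (adjusted p = 0.604, 0.654 and 0.686).

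Among 31 measured receptor genes, 2 were higher and 3 lower at an unadjusted p under 0.05 in Jak2VF_Ezh2KO against Jak2VF, where 645 of all 22180 genes were higher and 884 lower at that level, and the list median was -0.10 against -0.04 for all genes. Csf2rb2, the beta chain of the interleukin-3 receptor, read 5.52, 6.51 and 5.76 in Jak2VF_Ezh2KO, 7.13, 7.02 and 8.0 in Jak2VF, and 6.02, 6.57 and 5.57 in WT. All 3 Jak2VF arrays lay above the 6 others. The difference was -1.46 between Jak2VF_Ezh2KO and Jak2VF (interval -2.23 to -0.68, limma adjusted p = 0.342) and 1.33 between Jak2VF and WT (interval 0.56 to 2.10, adjusted p = 0.924), with the Jak2VF arrays shared. Csf2rb, its close relative and the common beta chain, was 0.51 higher in Jak2VF than in WT (adjusted p = 0.924), and Il4ra, the interleukin-4 receptor, was 0.55 higher (adjusted p = 0.924). Csf2rb read 6.63, 6.01 and 6.47 in Jak2VF_Ezh2KO, 7.53, 6.89 and 7.07 in Jak2VF, and 6.59, 6.72 and 6.64 in WT. Its Jak2VF arrays thus also lay above all others. For Csf2rb and Csf2rb2, probes may not tell these similar genes apart.

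Il7r, the interleukin-7 receptor of lymphoid cells, read 6.05, 7.25 and 7.33 in Jak2VF_Ezh2KO, 5.57, 4.80 and 4.40 in Jak2VF, and 5.19, 5.57 and 5.04 in WT. All 3 Jak2VF_Ezh2KO arrays lay above the 6 others, with a difference of 1.95 from Jak2VF (interval 1.12 to 2.78, adjusted p = 0.221). Il2rb, the interleukin-2 receptor beta chain, differed by 0.88 from Jak2VF (adjusted p = 0.273). Against WT, Jak2VF_Ezh2KO differed by 1.61 for Il7r, by 0.73 for Il2rb and by -0.46 for Il12rb2, an interleukin-12 receptor chain (adjusted p = 0.319, 0.4 and 0.516). Il7r and Il2rb stand in the T and NK cell list as well, whose higher level in Jak2VF_Ezh2KO is given above, and the part of such cells was not tested.

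Adaptors and partners of the kinases, 15 measured genes such as Grb2 and Gab1, held 0 genes at an unadjusted p under 0.05 in any of the 3 comparisons. In Jak2VF_Ezh2KO against Jak2VF, 2 of the 15 had a positive difference and 13 a negative one, with a median of -0.08, where 41.8% of all genes were positive. In Jak2VF against WT, which shares the Jak2VF arrays, 13 were positive and 2 negative, with a median of 0.22, where 55.8% of all genes were positive. In Jak2VF_Ezh2KO against WT, 12 were positive and 3 negative, with a median of 0.07, where 46.5% of all genes were positive. Gab1, an adaptor for the Shp2 phosphatase and 1 of the 2 positive genes, was 0.42 higher in Jak2VF_Ezh2KO than in Jak2VF (adjusted p = 0.727). Sh2b2 and Grb2, further adaptors, differed by -0.21 and -0.24 there (adjusted p = 0.796 and 0.8). In Jak2VF against WT, the adaptor Shc1 and the kinase Fes differed by 0.31 each and Sh2b2 by 0.24 (adjusted p = 0.924 each). In Jak2VF_Ezh2KO against WT, Gab1 differed by 0.33, Shc1 by 0.25 and Fes by 0.21 (adjusted p = 0.664, 0.667 and 0.751), and Fes by 0.018 without WT replicate 3.

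Inhibitors of the pathway, 22 measured genes, had a median of -0.04 in Jak2VF_Ezh2KO against Jak2VF, the same as all genes, with 1 higher and 2 lower at an unadjusted p under 0.05, a level that 6.89% of all genes reached. Cish, a Stat5-induced feedback inhibitor that also stands in the target list, read 7.91, 8.88 and 8.47 in Jak2VF_Ezh2KO, 6.61, 7.59 and 7.43 in Jak2VF, and 7.85, 7.46 and 7.17 in WT. The Jak2VF_Ezh2KO arrays lay above all 6 others, with a difference of 1.21 from Jak2VF (interval 0.52 to 1.91, 2.32-fold, limma adjusted p = 0.39) and of 0.93 from WT (interval 0.24 to 1.63, adjusted p = 0.49). On its second brightest probe set Cish differed by 0.67 from Jak2VF and by 0.59 from WT. The 2 lower genes were Socs7, at -0.40, and Ptprc, the CD45 phosphatase that can dephosphorylate Jak kinases, at -0.42 (adjusted p = 0.646 and 0.712). In Jak2VF against WT, Socs3, a feedback inhibitor induced by Stat3, differed by 0.29, Socs7 by 0.35 and Cbl, an E3 ubiquitin ligase, by 0.43 (adjusted p = 0.924 each). Between Jak2VF_Ezh2KO and WT, Ptprc differed by -0.40 and the phosphatase gene Dusp1 by 0.78 (adjusted p = 0.592 and 0.594), and Dusp1 by 0.34 without Jak2VF_Ezh2KO replicate 3.

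Of 31 measured Stat target genes, 5 were higher and 0 lower at an unadjusted p under 0.05 in Jak2VF against WT, with a median of 0.16 against 0.03 for all genes. Among the 5 are Osm and Socs3, which the ligand and inhibitor lists hold as well, so the lists are not separate there. Fcer1a, also in the mast cell and basophil list below, is another of the 5. The target list was chosen with earlier results of these data known, so its counts are not an independent test. Of all 22180 genes, 632 were higher and 402 lower at that level, or 4.66% in all. In Jak2VF_Ezh2KO against WT, 6 were higher and 0 lower, with a median of 0.17 against -0.02, where 1008 of all genes were higher and 900 lower, or 8.6% in all. These comparisons share the WT arrays. Between Jak2VF_Ezh2KO and Jak2VF 1 was higher and 1 lower, and the median was -0.03 against -0.04. The higher gene was Cish and the lower one Bcl2, a survival gene, at -0.42, while the cyclin gene Ccnd2 differed by 0.38 without reaching that level (adjusted p = 0.575 for Bcl2 and 0.735 for Ccnd2). Bcl2 differed by -0.12 on its second brightest probe set. Pim1, a kinase gene induced by Stat5, read 7.45, 7.69 and 7.97 in Jak2VF_Ezh2KO, 7.69, 8.22 and 8.07 in Jak2VF, and 6.76, 7.69 and 6.90 in WT, where WT replicate 2 read the same as Jak2VF_Ezh2KO replicate 2 and Jak2VF replicate 1. It differed by 0.88 between Jak2VF and WT (interval 0.31 to 1.45, limma adjusted p = 0.924), and by 0.31 on its second brightest probe set. Irf8, a myeloid and lymphoid transcription factor gene, differed by 0.98 between Jak2VF_Ezh2KO and WT and by 0.81 between Jak2VF and WT (limma, adjusted p = 0.253 and 0.924). On its second brightest probe set Irf8 differed by 0.35 and 0.16 in the same order. Fcer1a, a mast cell and basophil receptor gene, differed by 1.31 and 1.62 in the same order (adjusted p = 0.457 and 0.924). The mast cell and basophil list of 12 genes, which includes Fcer1a itself, lay between 5.94 and 6.34 in Jak2VF_Ezh2KO. It lay between 5.69 and 6.08 in Jak2VF and between 5.23 and 5.41 in WT. Of the 12 genes, 5 lay above the median gene, and the part of such cells in the values of Fcer1a was not tested.

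**Figure D5:**
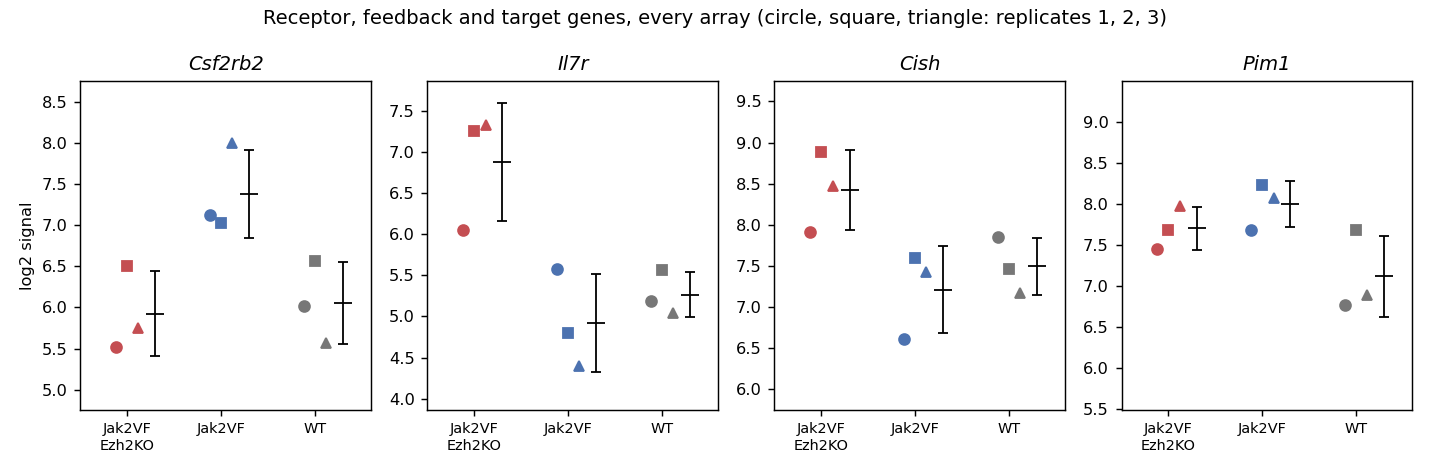
Log2 signal of the receptor genes Csf2rb2 and Il7r, the feedback inhibitor Cish and the target Pim1 in every array, with Jak2VF_Ezh2KO on the left, Jak2VF in the middle and WT on the right; black bars are means with the SD of 3 arrays, and every panel spans the same height. Csf2rb2 is highest in the 3 Jak2VF arrays, Il7r and Cish are highest in the 3 Jak2VF_Ezh2KO arrays, and Pim1 in WT replicate 2 equals Jak2VF_Ezh2KO replicate 2 and Jak2VF replicate 1.

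Stat2, a further Stat gene and the partner of interferon-activated Stat factors, read 7.0, 7.11 and 6.87 in Jak2VF_Ezh2KO, 6.21, 6.89 and 7.11 in Jak2VF, and 6.45, 6.46 and 6.70 in WT. It lay higher in Jak2VF_Ezh2KO than in all WT arrays, with a difference of 0.46 (interval -0.02 to 0.93) that did not pass (limma, adjusted p = 0.597). Jak2VF_Ezh2KO minus Jak2VF was 0.26 (adjusted p = 0.854), while Jak2VF minus WT was 0.20 (adjusted p = 0.935).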

How the data were processed

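Gene expression was measured in 9 samples on microarrays. Per the labels' protocols, 10 ng of RNA was amplified with the Ovation Pico WTA System V2 and labelled with biotin, and the submitters' processing notes name Partek 6.6. The values are log2 signals of 41345 probe sets as deposited; no source used here states how the authors corrected, normalized and summarised them, and the scale was read from the values. Precision is limited by having 3 arrays in a group.

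A single gene symbol was given for 23521 probe sets, several for 1814 and none here for 16010. Each gene is read from its brightest probe set by the mean of all arrays. All 9 arrays entered a single limma fit (lmFit, eBayes; limma 3.58.1, R 4.3.3) with 3 contrasts, which was tested on simulated data. Residual degrees of freedom were 6 and prior ones 3.83.

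The members, the lists and the alternatives were chosen with earlier results of these data known. Named were all members, Ezh2, the 3 genes of each list with the smallest p in each contrast, and per member the 2 genes most correlated over the arrays, leaving out predicted, small RNA and olfactory or vomeronasal receptor genes. Alternatives were another variance model, quantile normalization, median centring, dimmer genes left out, 2 groups alone, every probe set, the second brightest probe set, the replicate number as a block, no arrays with Y-linked signal, and each array left out. Promoter sequences are those of RefSeq (GRCm38.p6), matched by symbol for all 8 measured members. No array had values identical to another's.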

Additional observations from a re-analysis of the deposited data

How the results depend on the processing

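The count of Jak and Stat genes past the threshold was 0 in every comparison under all 18 alternatives, with adjusted p of at least 0.262. Of 432 recomputed differences of these genes, 224 could not move, since the setting alters only the error, the genes tested or an array outside the contrast. Of the other 208, 186 kept their direction and 22 reversed it, in 9 differences whose reported size was at most 0.15. Jak2 stayed between -0.63 and -0.34 and Stat5b between -0.88 and -0.52 in Jak2VF_Ezh2KO against Jak2VF over all alternatives, and Stat3 between 0.24 and 0.48 in Jak2VF against WT. Insl6 stayed between 0.99 and 1.53 in Jak2VF against WT.

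With quantile normalization, Jak1 was -0.0429 and Stat6 -0.060 in Jak2VF against WT. Stat4 in Jak2VF_Ezh2KO against WT was 0.011 with median centring. Without both arrays with Y-linked signal, which leaves 1 Jak2VF_Ezh2KO array that is assumed to vary like the other groups, Stat4 was 0.25 and Stat5a -0.045 in Jak2VF_Ezh2KO against WT, while in Jak2VF_Ezh2KO against Jak2VF Jak2 was -0.63 and Stat5b -0.52. With 1 array left out at a time, Jak2VF_Ezh2KO against Jak2VF ranged from -0.087 to 0.038 for Tyk2, from -0.12 to 0.19 for Stat4 and from -0.0080 to 0.44 for Stat2. Jak2VF against WT ranged from -0.045 to 0.12 for Jak1, from -0.23 to 0.056 for Stat4 and from -0.050 to 0.087 for Stat6. Jak2VF_Ezh2KO against WT ranged from -0.0074 to 0.20 for Stat3, from -0.18 to 0.080 for Stat4, from -0.030 to 0.35 for Stat5a and from -0.13 to 0.0052 for Stat6.

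With 1 array left out, Stat5a ranged from 0.086 to 0.47 and Jak2 from 0.14 to 0.34 in Jak2VF against WT, Stat3 from -0.38 to -0.15 and Jak1 from -0.26 to -0.093 in Jak2VF_Ezh2KO against Jak2VF, and Jak2 from -0.27 to -0.12 and Tyk2 from 0.095 to 0.23 in Jak2VF_Ezh2KO against WT.

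The counts over all genes moved more. The 10 genes of Jak2VF_Ezh2KO against Jak2VF became 4 with median centring, 19 with the dimmer genes left out, and 0 with 2 groups alone, with every probe set tested, with the replicate block and without the arrays with Y-linked signal, and they ranged from 0 to 17 with 1 array left out. The 5 genes of Jak2VF_Ezh2KO against WT became 10 with an intensity trend and robust variance, 3 with median centring and 0 in the same 4 settings, and they ranged from 0 to 14 with 1 array left out. Jak2VF against WT stayed at 0. The cause of these moves was not tested. With the replicate number as a block, adjusted p was 0.55 for Jak2 and 0.549 for Stat5b. Same-numbered deviations correlated between -0.23 and 0.48 and exceeded 0.1 in 2 of 9 pairs. Those were replicate 1, at 0.21, and replicate 2, at 0.48, of Jak2VF against WT. Differently numbered arrays were not compared, so whether the numbers pair the arrays is not settled.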
